A study of Rattus norvegicus with 12 samples.

Results

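The Reg family secreted lectins were examined in RNA sequencing of rat intestine. They comprise Reg3b (NCBI Gene identifier 24618), Reg3g (24620), Reg3a (171162) and Reg4 (445583), chosen by symbol as 4 of the 18749 genes in the count table. The data were 12 libraries of polyadenylated RNA from wild-type rats, 4 in each of 3 groups, and all are labelled batch 1. The preSTC group is labelled preoperative and the postSTC group postoperative, and the preCTC group was taken before a sham operation. The series title concerns the small intestine after removal of the colon, and no agent or allele is named for any group. STC, CTC, strain, age, sex, gut segment and the interval after surgery are not explained in the labels. The labels do not say that the libraries of a group came from separate animals, and each p-value therefore covers just the variation among the libraries at hand, part or all of which may be technical. No sample taken after a sham operation was analysed here, so the effects of the operation and of time cannot be told apart.

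Reg proteins are small secreted proteins built around a C-type lectin domain. In the small intestine Reg3b and Reg3g are made by enterocytes and Paneth cells, and both act against bacteria close to the epithelium. Reg3g binds the peptidoglycan of Gram-positive bacteria, and Reg3b also acts against some Gram-negative species. Their transcription is known to respond to bacteria through MyD88 and through interleukin-22, whose receptor signals through STAT3. Reg4 is made by secretory cells of the gut epithelium, including enteroendocrine cells and goblet-type cells.

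Reg3b, Reg3a and Reg3g lie in a cluster on chromosome 4 with Reg1a, a related gene, and Reg4 lies apart on chromosome 2. All 4 members and Reg1a matched a RefSeq entry of assembly GRCr8. The 250 bases before the transcription start are shown for the 3 clustered members because the STAT3 pathway is followed below. Capitals mark TTCNNNGAA (the palindrome that STAT proteins bind), TGGGAA (the core of an older interleukin-6 response element) and TATAAA (the box that positions the polymerase), each searched on both strands. A run of TTCCCA is TGGGAA on the other strand, and no matches overlapped in the sequences shown. Where RefSeq has more than 1 start for Reg3a, the window of the more upstream start is given. The windows are Reg3b at chr4:112419526-112419775 on the + strand, Reg3g at chr4:112484739-112484988 on the - strand and Reg3a at chr4:112430147-112430396 on the + strand (GRCr8).
Reg3b: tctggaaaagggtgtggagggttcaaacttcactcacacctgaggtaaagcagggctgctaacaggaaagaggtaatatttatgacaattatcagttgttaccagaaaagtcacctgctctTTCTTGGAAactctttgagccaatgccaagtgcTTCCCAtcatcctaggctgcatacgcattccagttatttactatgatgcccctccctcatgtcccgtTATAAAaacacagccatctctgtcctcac
Reg3g: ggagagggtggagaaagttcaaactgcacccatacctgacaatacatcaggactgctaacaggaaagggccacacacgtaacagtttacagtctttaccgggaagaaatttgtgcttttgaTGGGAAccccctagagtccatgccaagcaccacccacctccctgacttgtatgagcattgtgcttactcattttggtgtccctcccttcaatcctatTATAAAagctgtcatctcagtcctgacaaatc
Reg3a: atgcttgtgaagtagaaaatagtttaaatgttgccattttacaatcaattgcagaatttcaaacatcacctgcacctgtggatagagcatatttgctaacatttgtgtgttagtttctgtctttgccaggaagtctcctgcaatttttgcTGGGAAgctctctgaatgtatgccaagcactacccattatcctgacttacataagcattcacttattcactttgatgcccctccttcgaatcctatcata
Reg3b held TTCTTGGAA beginning 129 bases before the start, TTCCCA at 96 and TATAAA at 29. In Reg3g, TGGGAA began 129 bases before the start, where Reg3b has the STAT palindrome, and TATAAA began at 32. Reg3a held TGGGAA at 100 from the start used here and at 127 from its more downstream start, and Reg4 held none of the 3 motifs. Of all 33469 RefSeq windows of this length, 7.67% held TTCNNNGAA, 22.1% held TGGGAA and 12.9% held TATAAA, so each motif is common. The aligned windows of Reg3b and Reg3g were 65.4% identical, against 55.0% for Reg3b and Reg3a and 51.9% for Reg3b and Reg4. A match describes letters only, and none was measured for binding.

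Libraries held 30095656 to 39374682 counts. Levels are given as CPM, a gene's counts relative to its library's total, with TMM scaling of that total (trimmed mean of M values). Genes were tested with edgeR's quasi-likelihood F-test, and a gene was called at a Benjamini-Hochberg adjusted p under 0.05 over the 15704 genes that passed a filter on low counts. Of the 4 members, 3 passed that filter and Reg3a did not. Epithelial markers were abundant in all libraries, with summed levels of 8884 to 21230 CPM. The preSTC and preCTC groups differed widely in genes that mark gut position: Hoxb13, a homeobox gene of the hindgut, was at 315 to 445 CPM in 3 preCTC libraries, at 1.44 in preCTC5 and at 0.056 to 0.311 in preSTC. In postSTC it was at 42.2 to 125 CPM. Although the title names the small intestine, 11 of 12 tested colon-enriched genes were higher in preCTC than in preSTC and 10 of 11 markers of absorptive enterocytes were lower. Over all tested genes 19.6% were higher in preCTC than in preSTC and 19.1% lower. Genes of male accessory glands made up 40.8% of the counts of postSTC7, 0.0170 to 0.0233% in the other postSTC libraries, 0.0188% in preSTC7 and no more than 0.00017% elsewhere. A fit with those genes removed left every member's call in place.

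Reg3b and Reg3g stood near the top of the transcriptome before the operation, fell after it, and were rare in the sham group's preoperative samples. Reg3b counted 15666, 14316, 17633 and 19314 CPM in preSTC1, 5, 7 and 9. It counted 2741, 2153, 3421 and 1586 CPM in postSTC1, 2, 5 and 7, and 15.7, 18.3, 18.6 and 20.4 CPM in preCTC1, 5, 7 and 9. The 3 groups were fully separate, and the preCTC5 library, low in Hoxb13, lay with its group. Group means were 16732 ± 2195, 2475 ± 787 and 18.2 ± 1.94 CPM (SD, n = 4 each). Reg3b fell from preSTC to postSTC, with a log2 fold change estimated at -2.76 and an SE of 0.25 (adjusted p = 0.000268, edgeR). It was 9.84 ± 0.34 higher on the log2 scale in preSTC than in preCTC (edgeR adjusted p = 7.26e-09) and 7.08 ± 0.30 higher in postSTC than in preCTC (edgeR adjusted p = 6.63e-08).

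Reg3g, the lectin that binds peptidoglycan, followed the same order of groups. Its levels were 12107, 11323, 16526 and 13591 CPM in preSTC1, 5, 7 and 9, then 2276, 2130, 3303 and 1543 CPM in postSTC1, 2, 5 and 7. In preCTC1, 5, 7 and 9 it was at 13.7, 14.6, 15.2 and 15.5 CPM. The groups again did not overlap, and postSTC7 was the lowest postoperative library for both genes. Means were 13387 ± 2294, 2313 ± 732 and 14.7 ± 0.775 CPM (SD, n = 4 each). Reg3g fell by 2.53 ± 0.24 (SE) on the log2 scale from preSTC to postSTC (adjusted p = 0.000316, edgeR), and its log2 fold change was 9.83 ± 0.33 for preSTC over preCTC (adjusted p = 7.26e-09) and 7.29 ± 0.30 for postSTC over preCTC (edgeR adjusted p = 4.58e-08). These comparisons share groups and are not independent of each other. In bulk tissue, fewer cells of a type and less RNA per cell cannot be told apart.

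The postSTC and preSTC libraries share replicate numbers 1, 5 and 7, and same-numbered libraries deviated together, so a fit with the replicate number as a block was also made. In that fit over all 12 libraries the fall kept its call, with adjusted p of 0.00515 for Reg3b and 0.00666 for Reg3g in edgeR. Over the 8 libraries of these groups alone, the blocked log2 fold change was -2.70 for Reg3b (edgeR adjusted p = 0.0707) and -2.55 for Reg3g (edgeR adjusted p = 0.0762), neither of them called. In this fit postSTC2 and preSTC9 have no partner, so the difference rests on the pairs numbered 1, 5 and 7. Few libraries are then left to estimate the spread, and a lost call does not show that a gene was unchanged.

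Reg4, the member made by secretory cells, was far less abundant and more variable. It was at 183, 47.0, 129 and 76.1 CPM in preSTC1, 5, 7 and 9, and at 98.2, 68.0, 19.0 and 39.5 CPM in postSTC1, 2, 5 and 7. These groups overlapped: the lowest preoperative library, preSTC5, lay below 2 postoperative ones. In preCTC it was at 1.26, 1.32, 1.41 and 1.28 CPM, below every other library. Means were 109 ± 59.8, 56.2 ± 34.5 and 1.32 ± 0.0702 CPM (SD, n = 4 each). The postSTC to preSTC difference did not pass the test (-0.95 ± 0.46 on the log2 scale; adjusted p = 0.173, edgeR). Reg4 was higher than in preCTC in both other groups, by 6.36 ± 0.60 in preSTC (edgeR adjusted p = 1.40e-05) and 5.41 ± 0.57 in postSTC (edgeR adjusted p = 8.16e-05), both on the log2 scale.

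Reg3a, a further antibacterial member of the family, was almost absent from these libraries. It had 4 counts in preSTC1, 5 counts in preSTC5 and 0 in the other 10 libraries, where 3 counts, the limit that a count of 0 allows, correspond to 0.0723 to 0.134 CPM. No fold is given, since both groups of any comparison were at or near this limit. Such limits and the intervals below cover counting error only.

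**Figure D1:**
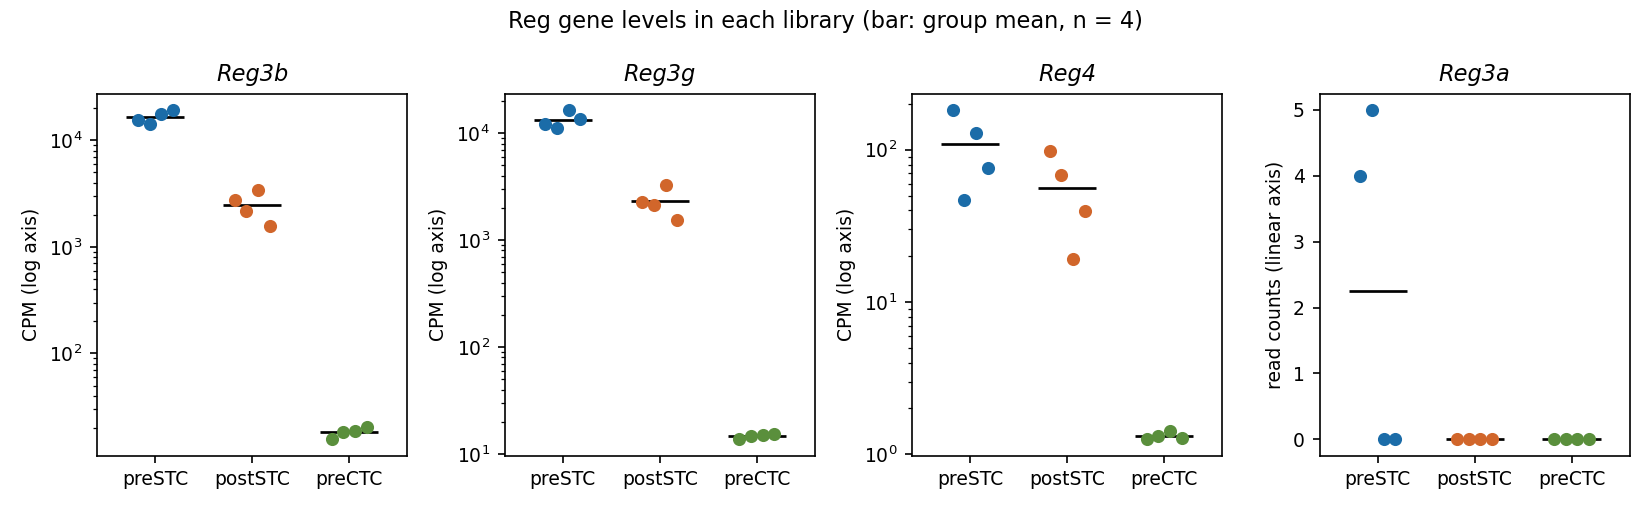
Levels of Reg3b, Reg3g and Reg4 in CPM (log axis) and Reg3a in read counts (linear axis) for each library, by group; points are libraries and bars are group means (n = 4). Reg3b and Reg3g form 3 separate bands, Reg4 overlaps between preSTC and postSTC, and Reg3a has counts in 2 preSTC libraries.

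From preSTC to postSTC, 2 of the 3 tested members fell and none rose, where 18% of all tested genes were called, 11.1% higher and 6.9% lower. Between preSTC and preCTC, all 3 tested members were higher in preSTC, against a background of 38.7% called, with 19.1% higher and 19.6% lower. From preCTC to postSTC, all 3 were higher in postSTC, and 16.6% of genes were called, 9.27% higher and 7.37% lower. The median log2 fold change of the 3 tested members was -2.53 from preSTC to postSTC and 9.83 for preSTC over preCTC. Over all tested genes these medians were 0.04 and -0.02.

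Together Reg3b and Reg3g made up 2.61 to 3.34% of all counts in the preSTC libraries. The lowest share was in preSTC5 (95% Wilson interval 2.61 to 2.62%) and the highest in preSTC7 (3.34 to 3.35%). In postSTC the share was 0.516% in postSTC1, 0.461% in postSTC2, 0.739% in postSTC5 and 0.177% in postSTC7, whose total holds the accessory gland genes. In preCTC it was 0.00328 to 0.00411%. In FPKM, which divides by gene length and library size so that different genes can be set side by side, Reg3b had 21315 ± 2732 in preSTC (SD, n = 4) and ranked first of all genes in each of those libraries. Its postSTC level was 3147 ± 1534 FPKM, with ranks of 5, 14, 1 and 26 in postSTC1, 2, 5 and 7. Its preCTC level was 25.9 ± 3.10 FPKM.

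Reg3g reached 6207 ± 1006 FPKM in preSTC, with ranks of 4 to 8, 1070 ± 527 in postSTC, with ranks of 26 to 111, and 7.63 ± 0.482 in preCTC (SD, n = 4). Reg4 was at 226 ± 120, 115 ± 83.2 and 3.07 ± 0.0930 FPKM in the same order. Within every group the order per length was therefore Reg3b, Reg3g, Reg4 and Reg3a. The step from Reg3b to Reg3g rests on the gene lengths behind the FPKM values, which work out at 778 bases for Reg3b and 2136 for Reg3g. Per count, without length, the pair lay close together.

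Ratios within a library show whether members moved by the same fold. Reg3b had 1.29, 1.26, 1.07 and 1.42 counts per Reg3g count in preSTC1, 5, 7 and 9, and 1.20, 1.01, 1.04 and 1.03 in postSTC1, 2, 5 and 7. In preCTC the ratio was 1.14, 1.26, 1.22 and 1.32. The ranges overlapped throughout while both genes changed by orders of magnitude. The log2 ratio was 0.23 lower in postSTC than in preSTC, with group means of 0.0934 ± 0.117 and 0.328 ± 0.172 (SD, n = 4; exact permutation test, two-sided, p = 0.0571, adjusted p = 0.0857 over 18 tests of 6 pairs). Between preSTC and preCTC it differed by 0.02 (exact permutation p = 0.83), and the sign of this difference turned without preCTC1 or without preSTC9.

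Reg4 numbered 11.7, 3.29, 7.33 and 3.94 counts per 1000 Reg3b counts in preSTC1, 5, 7 and 9. In postSTC1, 2, 5 and 7 it numbered 35.8, 31.6, 5.56 and 24.9, and in preCTC 80.1, 71.9, 76.2 and 62.6. The preCTC libraries were highest, and postSTC5 lay within the preSTC range. The log2 ratio of Reg3b to Reg4 was 1.79 lower in postSTC than in preSTC (exact permutation p = 0.0857, adjusted p = 0.110). Without postSTC5 the difference was -2.40 (exact permutation adjusted p = 0.0857). With that library left out, the test could not give a value under 0.05, so it could not pass. The same log2 ratio was 3.66 higher in preSTC than in preCTC (exact permutation p = 0.0286, the smallest that 4 against 4 allows, adjusted p = 0.0514). Adjusted values fell to 0.0429 in exact permutation tests with a prior count of 5 or with FPKM. The unadjusted p was already the smallest possible, so this fall came from other pairs among the 18 tests. Those include pairs with Reg3a, a gene almost without counts, and the fall therefore adds nothing about Reg4.

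**Figure D2:**
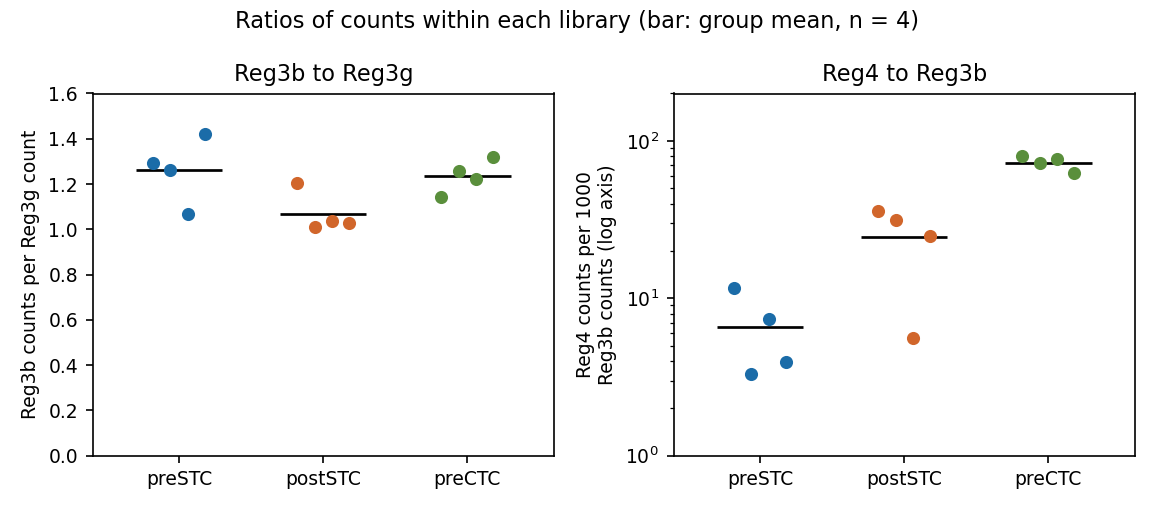
Counts of Reg3b per Reg3g count (left, linear axis) and of Reg4 per 1000 Reg3b counts (right, log axis) within each library, by group; points are libraries and bars are group means (n = 4). The left ratio stays between 1.01 and 1.42 in all 12 libraries, and the right one is 62.6 to 80.1 in preCTC and 3.29 to 35.8 elsewhere.

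Reg1a, another secreted lectin of the cluster, was outside the chosen set. It was at 3.87, 3.34, 12.6 and 7.00 CPM in preSTC1, 5, 7 and 9, at 14.1, 0.173, 0.772 and 0.985 CPM in postSTC1, 2, 5 and 7, and had 4 counts in all of preCTC. The postSTC1 library alone exceeded every preSTC library. The postSTC to preSTC log2 fold change of -0.75 did not pass the test (edgeR adjusted p = 0.654), and without postSTC1 it was -3.41 (edgeR adjusted p = 0.0144). Extl3, a receptor for Reg proteins, was at 43.0 CPM in preSTC, 56.8 in postSTC and 54.4 in preCTC. Its postSTC to preSTC log2 fold change was 0.40 (edgeR adjusted p = 0.0632), and it was called higher in DESeq2 but not in limma-voom.

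The preCTC levels of genes abundant in preSTC are given as a description only, since the genes entered through a high preSTC level. Of 269 genes with a preSTC mean of 500 CPM or more, 17 had a preCTC mean under 0.25% of it, limits that were chosen after the values were seen. Reg3b stood at 0.109% and Reg3g at 0.110%, the 8th and 9th lowest, and Reg4, below that abundance, at 1.21%. The lowest was Slc10a2, the ileal bile acid transporter, at 0.0556%. The 17 also held the defensins Defa8, Defa24, Defa6, Defal1 and Defa9, the bile acid binding protein Fabp6 and the lipoprotein genes Apob at 0.172% and Mttp at 0.188%. Whether the remaining preCTC counts were RNA of the tissue itself was not tested.

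The genes with the most similar pattern over the 12 libraries were found among 14172 genes by the root mean square difference of log2 CPM centred on each gene's mean, a description with no test. For Reg3b the nearest was Reg3g at 0.154, followed by the Paneth cell defensins Defal1 at 0.649, Defa9 at 0.701 and Defa6 at 0.719, and the neutral amino acid transporter Slc6a19 at 0.737. The nearest to Reg3g after Reg3b were the same 4 genes. Mean CPM of Defal1 was 3393, 724 and 3.69 in preSTC, postSTC and preCTC. For Reg4 the nearest were Gimd1 at 0.529, the sulfite oxidase Suox at 0.553, Tmem86b at 0.582, the adenylate cyclase Adcy8 at 0.624 and Mogat2, an enzyme of fat resynthesis in enterocytes, at 0.630. No gene was as near to Reg4 as Reg3g was to Reg3b.

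The STAT3 list, which holds signalling genes and targets of STAT3, moved in part. Its bearing on Reg3 transcription was not tested. From preSTC to postSTC, 6.9% of all tested genes fell and 11.1% rose. The list had 15 tested genes, of which 8 fell and 1 rose, with a median log2 fold change of -0.51. Among the genes that fell were Pim1, Socs3, Socs1, Bcl3, Stat3, Fut2 and Tyk2, of which the last 3 are outside the naming rule and were named after their values were seen. Socs3, the feedback inhibitor induced by STAT3, was at 29.3, 60.2, 57.7 and 76.6 CPM in preSTC1, 5, 7 and 9 and at 16.2, 19.3, 20.3 and 14.2 CPM in postSTC1, 2, 5 and 7. Every postoperative library was below every preoperative one (-1.68 ± 0.26 on the log2 scale; adjusted p = 0.00239, edgeR).

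Pim1, a kinase gene induced by STAT3, was at 36.4, 31.7, 34.9 and 32.1 CPM in preSTC and at 16.7, 15.0, 13.6 and 9.76 CPM in postSTC. These ranges did not overlap either (-1.29 ± 0.17 on the log2 scale; adjusted p = 0.00120, edgeR). Stat3 itself fell by 0.39 on the log2 scale, its mean going from 258 CPM (SD 7.26) to 197 CPM (SD 5.90; adjusted p = 0.00873, edgeR), and its log2 fold change turned to 0.24 when libraries were scaled to epithelial markers. Steap4, a metalloreductase gene that inflammation induces, was the riser, at 7.95, 18.4, 21.1 and 100 CPM in postSTC1, 2, 5 and 7 against 4.37 to 8.94 in preSTC (edgeR adjusted p = 0.0209). Its level was highest in postSTC7, and its call was lost without preSTC1 or without preSTC9. The count of 8 genes lower was 2 with column totals, 2 with epithelial scaling, 1 with a smooth muscle covariate, 3 in limma on FPKM and 0 in the 8-library fit with the replicate block. In the block fit over all libraries it was 9.

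Between preSTC and preCTC, 8 of the 15 STAT3 genes were higher in preSTC and the other 7 were not called, with a median log2 fold change of 0.37. Over all tested genes 19.1% were higher in preSTC and 19.6% lower. Between postSTC and preCTC, 5 of the 15 were higher in postSTC and 2 lower, with a median of 0.24, against 9.27% and 7.37% of all tested genes. Socs3 averaged 23.2 CPM in preCTC and 17.5 in postSTC. Pim1 averaged 9.44 and 13.8 CPM and was higher in postSTC by 0.55 on the log2 scale (edgeR adjusted p = 0.0465).

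**Figure D3:**
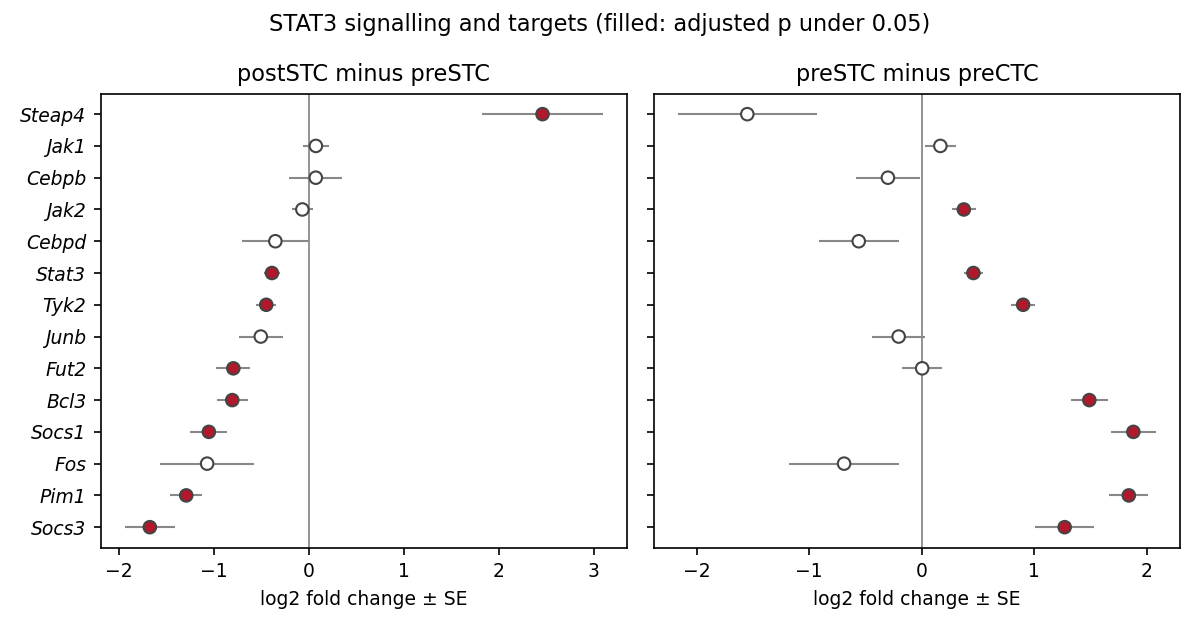
Log2 fold change ± SE of 14 of the 15 tested genes of the STAT3 list for the comparisons named above each panel; filled points passed an adjusted p of 0.05 in edgeR and open points did not. From preSTC to postSTC 7 filled points lie below 0 and Steap4 above it.

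The interleukin-22 axis, a list of cytokines and receptors, had 21 tested genes, with a median log2 fold change of -0.04 from preSTC to postSTC. Over all tested genes 18% were called in that comparison. From preSTC to postSTC 1 gene rose, Il6st, a shared receptor chain of the interleukin-6 family, with means of 151 CPM (SD 14.0) before and 253 CPM (SD 50.7) after (adjusted p = 0.00594, edgeR), and 20 did not pass. Il17rc, a receptor chain for interleukin-17, averaged 77.2 CPM in preSTC and 55.3 in postSTC (log2 fold change -0.48, edgeR adjusted p = 0.0514). It passed in DESeq2 (adjusted p = 0.0311), in the 12-library replicate block (0.0478), with accessory gland genes removed (0.0484) and without postSTC1 (0.0135) or preSTC5 (0.0362), and its sign turned with epithelial scaling. Il17f, an interleukin-17 cytokine gene, averaged 2.79 CPM in preSTC and 0.353 in postSTC (edgeR adjusted p = 0.0758). Osmr, of the same list, went the other way, from 13.8 to 19.1 CPM (log2 fold change 0.47, edgeR adjusted p = 0.107). The interleukin-22 receptor gene Il22ra1 averaged 36.2 and 34.6 CPM (edgeR adjusted p = 0.907). Il22 itself did not pass the filter. Il22, Il22ra1 and the adaptor gene Myd88 are named for their roles, a choice made after their values were seen. Il22 had 3, 49, 35 and 40 counts in preSTC1, 5, 7 and 9, 0 to 5 in postSTC and 0 to 7 in preCTC.

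Among 18 tested genes of bacterial sensing, 3 rose from preSTC to postSTC and 1 fell. As a list these genes lay near the background, since 11.1% of all tested genes rose and 6.9% fell. Their median log2 fold change was 0.07, against 0.04 over all tested genes. Cd14, a lipopolysaccharide coreceptor, rose by a log2 fold change of 1.62, Tlr4, the lipopolysaccharide receptor, by 1.84, and Lbp, which carries lipopolysaccharide to them, by 4.36 (edgeR adjusted p = 0.00180, 0.00293 and 0.00214). Tlr5, the flagellin receptor, fell by 0.75 on the log2 scale (edgeR adjusted p = 0.0261), a call lost without postSTC5, preSTC1 or preSTC9. Myd88, the adaptor through which most of these receptors signal, averaged 78.5 and 67.5 CPM and did not pass (edgeR adjusted p = 0.202). Cd14, Tlr4 and Lbp were all higher in preCTC than in preSTC, with means of 125, 85.4 and 50.7 CPM in preCTC.

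Other antimicrobial genes of the epithelium split, with 4 of 22 tested higher and 4 lower in postSTC than in preSTC. Over all tested genes 11.1% were higher and 6.9% lower. Retnlb, a goblet cell protein, rose between means of 0.141 CPM (SD 0.160) and 43.4 CPM (SD 28.7; adjusted p = 0.00061, edgeR), and its preCTC mean was 36.2 CPM (SD 24.8). Nos2, the inducible nitric oxide synthase, fell between means of 58.7 CPM (SD 10.7) and 12.7 CPM (SD 6.98; adjusted p = 0.00252, edgeR). The defensins Defa9 and Defa24 fell by 1.89 and 1.77 on the log2 scale (edgeR adjusted p = 0.00460 and 0.00776), and as near-identical copies they are uncertain as single genes. How a read that matches both Reg3b and Reg3g was counted is not known either, so each is uncertain as a single gene to the extent that their transcripts are alike.

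Markers of cell types and gut position moved with these results in part. As background to the counts below, 11.1% of all tested genes rose from preSTC to postSTC and 6.9% fell. From preSTC to postSTC, 7 of 12 tested colon-enriched genes rose in edgeR and in DESeq2. Limma-voom called 3 of them higher and did not call Hoxb13. The list's mean log2 CPM ranged over 0.21 to 0.92 in preSTC, 4.43 to 5.48 in postSTC and 4.93 to 6.51 in preCTC. Of 9 tested Paneth cell markers 3 fell, with mean log2 CPM of 8.33 to 9.20, 6.60 to 8.44 and 2.92 to 3.49 in the same order. All 3 were defensins (Defa8, Defa9 and Defa24), and the other 6 markers were not called. DESeq2 called 4 of the 9 lower and 1 higher. Of 10 tested smooth muscle markers 5 rose, with mean log2 CPM of 8.06 to 8.69, 9.00 to 9.55 and 9.53 to 10.26. The ranges of the epithelial list were 9.59 to 9.93, 8.84 to 9.75 and 9.26 to 9.70. Vil1, a brush border protein, was the 1 epithelial marker of 14 that edgeR called lower (log2 fold change -0.95, edgeR adjusted p = 0.0374). DESeq2 called 5 of the 14 lower. The median log2 fold change of the epithelial list was -0.43, against 0.04 over all tested genes. Goblet cell markers, which mark a source of Reg4, fell in 2 of 12 (Agr2 and Atoh1), with mean log2 CPM of 8.23 to 8.86, 7.87 to 8.35 and 7.50 to 8.43. The calls of Vil1 and Atoh1 were lost when any 1 postSTC or preSTC library other than postSTC1 was left out. Of 11 tested markers of absorptive enterocytes, another source of Reg3 transcripts, 1 rose and 1 fell from preSTC to postSTC. Their mean log2 CPM was 8.3 to 8.6 in preSTC, 7.7 to 10.2 in postSTC and 1.6 to 2.1 in preCTC. The postSTC libraries thus lay both above and below the preSTC range, with postSTC1 the highest. Of 13 enteroendocrine markers edgeR and limma-voom called none and DESeq2 called 1, which was lower, while 2 had p-values under 0.05 in edgeR before adjustment.

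Scaled to the epithelial markers in place of TMM, Reg3b was still lower in postSTC than in preSTC by a log2 fold change of -2.18 (edgeR adjusted p = 0.000331), while the median of all genes moved to 0.67. Of 24 genes named here from the lists and called between preSTC and postSTC, 20 lost the call with a smooth muscle score as covariate (Cd14, Socs3, Retnlb and Hoxb13 did not) and 21 in the 8-library fit with the replicate block (Lbp, Retnlb and Hoxb13 did not). With the smooth muscle covariate Reg3b and Reg3g kept theirs. The muscle score did not overlap between preSTC (8.06 to 8.69) and postSTC (9.00 to 9.55), so the covariate carries much of the group difference itself. Neither a lost nor a kept call in that fit shows what muscle content contributed. Pancreatic acinar genes, a source of Reg transcripts outside the gut, summed to 11.9 to 24.7 CPM in each library, most of it Cela1, and Prss1, Prss2, Clps and Amy2a3 did not pass the filter on low counts. Of the 5 that did, 1 (Rbpjl) rose from preSTC to postSTC, a call lost without postSTC5, postSTC7, preSTC1, preSTC7 or preSTC9 and in the 12-library fit with the replicate block. The part of gut position, Paneth cell markers and smooth muscle markers in the Reg results was not tested, and the place along the gut and the operation cannot be told apart here.

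**Figure D4:**
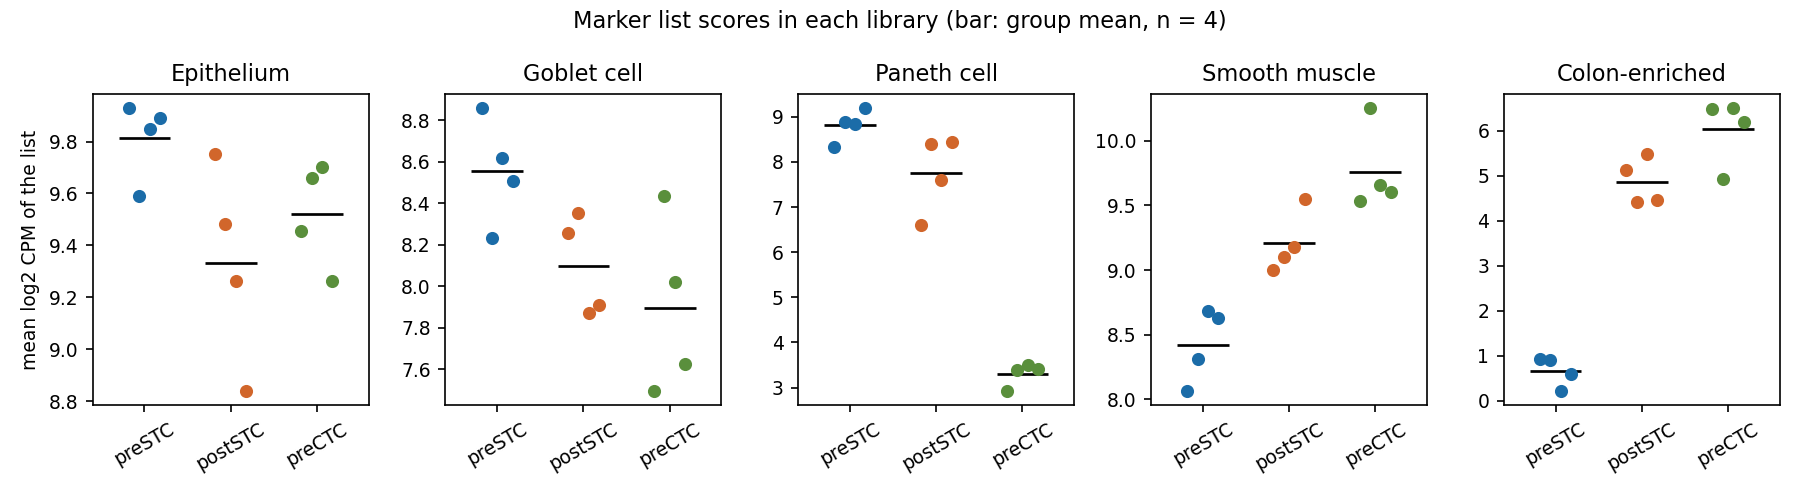
Mean log2 CPM of each marker list in each library, by group; points are libraries and bars are group means (n = 4). Colon-enriched genes lie at 0.21 to 0.92 in preSTC and at 4.43 or more in the other groups, and Paneth cell markers lie at 2.92 to 3.49 in preCTC and at 6.60 or more elsewhere.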

How the data were processed

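Deposited whole read counts per gene, 1 column per library, were analysed as the authors gave them. The submitters' processing notes name fastp, HISAT2, HTSeq and, as the rat genome build, mRatBN7.2, and give no versions. The design text of the series describes another species and was not used. The deposited FPKM values were proportional to count over column total within each gene (largest relative deviation 1.8e-13) and entered ranks, levels per length and 1 alternative (log2 of FPKM plus 1). How strand and multiple matches were handled is not given in the sources used here. A RefSeq table of GRCr8 gave names and promoter sequences only, since the builds differ.

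Groups and replicate numbers came from the sample titles. Replicates differed by more than sampling noise (chi-square per gene at least 32.2). In edgeR 4.0.16 (R 4.3.3), TMM factors, filterByExpr (15704 genes, 83.8%) and 1 quasi-likelihood model of the group over 12 libraries were used, with Benjamini-Hochberg adjustment and calls under 0.05. The SE is the absolute log2 fold change over the square root of F, and CPM uses TMM factors. Member ratios used counts with a prior of 0.5 and exact two-sided permutation. Alternatives used limma 3.58.1 and DESeq2 1.42.0, and the model was tested on simulated data. Same-numbered postSTC and preSTC libraries had correlated deviations (0.236, 0.158 and 0.168 for numbers 1, 5 and 7), but not all did for preCTC. Numbers come from the titles, which do not say what they mark.

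The text names the 4 members, other Reg genes, up to 4 genes per list with the lowest p from preSTC to postSTC, and the 5 genes nearest each tested member among those of mean CPM 1 or more, computed with a prior count of 2. Of 202 genes in 16 lists, 194 were in the table. Some genes counted in the lists are not reported here by name. Members and lists were chosen with earlier results of these data known.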

Additional observations from a re-analysis of the deposited data

Results flagged for a closer look

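In groups of 4, the gap between the extreme library and its nearest neighbour was divided by the group's range. The result was set against Dixon's critical value at the 95% level in 22 groups. Chance flags about 1 in 20 groups if values are spread normally. Reg1a in postSTC had a gap of 0.941, from 14.1 CPM in postSTC1 to 0.985 in the next library. Reg1a in preCTC had a gap of 1.0, since 1 library held 0.103 CPM (4 counts) and the other 3 held 0. With those 3 at 0, any level above 0 in the remaining library gives a gap of 1.0, so this flag carries no information. The log2 ratio of Reg3b to Reg3g in postSTC had a gap of 0.863, with 1.20 Reg3b counts per Reg3g count in postSTC1 and 1.01 to 1.04 in the other 3. The cause of each was not tested.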

How the results depend on the processing

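Over 20 alternatives each, log2 fold changes from preSTC to postSTC were -2.95 to -2.18 for Reg3b, -2.76 to -1.95 for Reg3g and -1.37 to -0.29 for Reg4, which no alternative called (adjusted p 0.0562 to 0.891). The 8-library replicate block ended the call of Reg3b (-2.70) and Reg3g (-2.55), and the block changed no other member call. Between postSTC and preSTC that fit rests on the pairs numbered 1, 5 and 7, so calls lost in it do not show that genes were unchanged. Calls against preCTC held in all 20. Genes called numbered 2833 (postSTC to preSTC), 6077 (preSTC to preCTC) and 2612 (postSTC to preCTC). They numbered 848, 3973 and 1560 with column totals, 161, 723 and 1586 with a smooth muscle covariate, and 521, 3824 and 1668 in limma on FPKM. The muscle score did not overlap between preSTC and postSTC, so calls lost with it do not show what muscle content contributed. Epithelial scaling gave 6495 and 1649 for the first and last, the 12-library replicate block 1746 and 1399, the 8-library block 66 and 151, and the 2-group fit 1455 for the last. Leaving out 1 library gave 1609 (without preSTC1) to 3684 (without postSTC1) for the first; without preSTC7 it was 1681 and without preSTC5 1855.

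Higher genes were 61.7, 49.3 and 55.7% of those called, against 79.1, 29.6 and 39% with column totals, 98.4, 21 and 78.4% with epithelial scaling, 80.7 and 38.7% (first and second) with the muscle covariate, 29.4 and 27.1% (second and last) on FPKM, and 87.9 and 86.1% (first and last) in the 8-library replicate block. Column totals moved the all-gene median to -0.04, -0.18 and -0.20, and epithelial scaling to 0.67, -0.41 and 0.28. Against preCTC, ratios to Reg4 passed with a prior count of 5 (3.77 and 1.98 for Reg3b, 3.74 and 2.19 for Reg3g, preSTC and postSTC) and on FPKM (3.99 and 2.20, 3.85 and 2.29). Their unadjusted p was the smallest possible in the main test too, so the passing came from other pairs in the adjustment, Reg3a pairs among them. The Reg3b to Reg3g ratio, preSTC over preCTC, was -0.0351 (without preSTC9) to 0.10 without 1 library, and -0.0120 without preCTC1. Epithelial scaling reversed Stat3 (0.24), Tyk2 (0.15), Il17rc (0.12), Il22ra1 (0.43) and Myd88 (0.39), and Il22ra1, not called, was also positive with the muscle covariate (0.73) and ranged from -0.34 (without postSTC2) to 0.16 (without postSTC7) with 1 library left out, positive also without postSTC5 (0.04) or preSTC1 (0.01). Of 24 named list genes called, 21 were lost in the 8-library block, 20 with the muscle covariate, 12 on FPKM and 11 with column totals. With epithelial scaling 7 were lost with their sign kept, and 2 more, Stat3 and Tyk2, changed sign and were not called. Without postSTC5 the Reg3b to Reg4 and Reg3g to Reg4 ratios against preCTC were 1.26 and 1.46. The cause of these changes was not tested. Reg3a counts were too few for any test at this depth.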
